A study of Mus musculus with 30 samples.

Results

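Chromatin that was accessible in both libraries of acutely isolated adult mouse brain endothelial cells (ECs), and that some but not all cultures of such cells kept accessible, was examined by joining the ATAC-seq peak lists of 2 acutely isolated and 6 WT cultured libraries wherever peaks overlapped by 1 bp or more. This gave 124834 merged intervals, of which 28222 held a peak in both acute lists. Among those 28222, 3712 (13.2%) had no peak in any WT cultured list, 16969 (60.1%) had one in all 6 lists, and 7541 (26.7%) had one in 1 to 5 lists. The 7541 intervals are called partly kept regions here, and 729, 1061, 798, 1945 and 3008 of them were in 1, 2, 3, 4 and 5 WT lists. Since the peak lists themselves chose them, their presence, height and number of lists in the acute and WT libraries are given as description, without a test.

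ATAC-seq cuts DNA where a transposase can reach it, and a peak is a stretch with more cuts than the local background. The acute ECs were GFP-positive cells sorted from brains of adult male mice homozygous for the Tie2-GFP transgene, in which the Tie2 promoter drives GFP in ECs. The authors describe their adult brain ECs as combined data from cerebrum and from cerebellum, the cerebellum data published earlier. Cultured ECs came from pooled brains of young adult mice, were selected with puromycin, and were grown for 8 days. WT wells 1 and 2 came from C57BL/6J mice. WT wells 3 to 6 came from Ctnnb1flex3/+;Tie2-GFP mice, which carry a beta-catenin allele with exon 3 flanked by loxP sites but no Cre, and which had received 4-hydroxytamoxifen as pups. The 2 beta-catenin stabilized ATAC-seq wells came from Ctnnb1flex3/+;Pdgfb-CreER;Tie2-GFP mice treated in the same way, where the EC-expressed Pdgfb-CreER removes exon 3 and the protein escapes degradation. Wells 1 and 2, 3 and 4, and 5 and 6 are pairs from 1 preparation each, so any p-value over wells measures only the spread between these samples. Isolation with papain (method A) was used for wells 1 and 2, wells 3 and 4 were isolated by Dounce homogenization with collagenase and dispase (method B), and the sources used here differ on the method for wells 5 and 6. In the WT ATAC-seq lists, genotype, isolation and preparation therefore cannot be told apart. A further limit is list length: the WT lists held 50450, 33152, 92763, 98840, 84560 and 92976 peaks for wells 1 to 6, and the read depth behind them is unknown.

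Brain ECs form the blood-brain barrier (BBB) by sealing their junctions and by expressing transporters for nutrients and efflux. Wnt ligands from neural cells keep this state by stabilizing beta-catenin, which acts on DNA through the TCF/LEF factors. Distal accessible regions often carry the sites of the factors that set cell identity, while promoters tend to be accessible in many cell types.

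To show what such regions look like, the taller acute summit with 100 bases on each side is printed for 5 partly kept regions that differ in which wells kept them. Each is the reference sequence of GRCm38 (GRCm38.p6, RefSeq), read 5′ to 3′, and capitals mark words of the motif search described below. The window near Slco1a4, which encodes an organic anion transporter of the BBB, holds an NFY word and a TCF/LEF word. The window upstream of Ctnnb1, the gene of beta-catenin, holds SOX, NFY and SP/KLF words. The window in an intron of Tead1, which encodes a DNA-binding partner of YAP, holds a TCF/LEF word and 2 ZIC words. The window upstream of Emcn, which encodes the EC surface sialomucin endomucin, holds an ETS word and a TCF/LEF word. The window in an intron of Cobl, an actin nucleator gene, holds none of the words, and its bases are 100% identical to themselves at a lag of 96 bases, so it spans a tandem repeat. A word match describes the letters of a window and does not show that a factor binds there.
Slco1a4 region, wells 3 and 4 only (chr6:141889070-141889270, + strand): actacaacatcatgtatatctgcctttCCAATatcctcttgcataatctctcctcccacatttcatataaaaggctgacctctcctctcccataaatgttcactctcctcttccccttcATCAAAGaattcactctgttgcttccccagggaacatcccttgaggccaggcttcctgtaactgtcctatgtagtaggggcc
Ctnnb1 region, well 4 only (chr9:120854415-120854615, + strand): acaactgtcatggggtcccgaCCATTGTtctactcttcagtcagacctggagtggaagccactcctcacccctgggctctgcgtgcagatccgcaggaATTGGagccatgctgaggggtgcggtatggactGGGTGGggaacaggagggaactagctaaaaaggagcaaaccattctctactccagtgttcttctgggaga
Tead1 intron region, wells 3, 4 and 5 (chr7:112763736-112763936, + strand): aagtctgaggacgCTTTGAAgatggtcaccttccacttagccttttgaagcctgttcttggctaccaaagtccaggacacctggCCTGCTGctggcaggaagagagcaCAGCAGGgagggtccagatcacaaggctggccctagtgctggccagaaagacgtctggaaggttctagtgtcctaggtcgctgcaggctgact
Emcn region, wells 3 to 6 (chr3:137243010-137243210, + strand): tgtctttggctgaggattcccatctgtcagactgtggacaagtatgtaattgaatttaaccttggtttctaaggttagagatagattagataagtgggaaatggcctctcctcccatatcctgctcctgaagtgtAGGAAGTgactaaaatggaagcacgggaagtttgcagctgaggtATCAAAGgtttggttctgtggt
Cobl intron region, wells 5 and 6 only (chr11:12375016-12375216, + strand): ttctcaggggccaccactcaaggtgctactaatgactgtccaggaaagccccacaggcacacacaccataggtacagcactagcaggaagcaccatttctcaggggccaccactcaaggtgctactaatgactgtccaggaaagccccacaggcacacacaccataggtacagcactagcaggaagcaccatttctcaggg

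In the plot of the partly kept regions by well, the lists differed widely in how many they held. Well 4 held a peak in 6832 of the 7541 (90.6%), well 3 in 6641 (88.1%), well 6 in 5500 (72.9%), well 5 in 5101 (67.6%), well 1 in 3544 (47.0%) and well 2 in 447 (5.93%). The shortest WT list, that of well 2, was thus the one that most often lacked them. Cutting every list to its 31844 best peaks by q-value left 5344 partly kept regions, and then wells 1 to 4 held 52.2 to 58.9% of them against 37.0% and 32.2% for wells 5 and 6. The order of the wells therefore turned with list length, and it is not read as an order of accessibility.

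**Figure D1:**
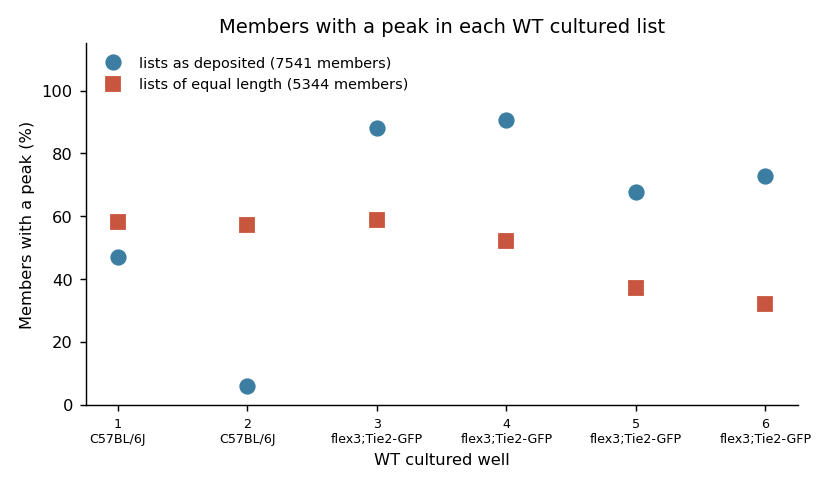
Share of the partly kept regions (y axis, percent) (members in the axis label) with a peak in each WT cultured well (x axis, with its genotype), with the lists as deposited (circles) and with all lists cut to 1 length (squares). As deposited the WT wells run from 5.93% in well 2 to 90.6% in well 4, and with equal lists from 32.2% in well 6 to 58.9% in well 3.

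Few patterns of wells held most of the regions, although 61 of the 62 possible patterns occurred. The commonest was a peak in every well but well 2, with 2764 regions (36.7%). A further 1612 (21.4%) had a peak in all 4 Ctnnb1flex3/+;Tie2-GFP wells and in neither C57BL/6J well, whereas 23 showed the reverse. The C57BL/6J lists were the shortest WT lists, and the patterns were not counted with lists of equal length. These counts are therefore not read as a difference between genotypes. Wells 3 and 4 alone kept 762 (10.1%), well 4 alone 344 (4.56%), and wells 5 and 6 alone 84 (1.11%). Both wells of a preparation were in the same state at 87.8% of the regions for wells 3 and 4, at 86.3% for wells 5 and 6, and at 53.2% for wells 1 and 2. These shares depend on how many regions each well held, from 5.93% in well 2 to 90.6% in well 4. For wells 1 and 2, 3313 regions were in well 1 only and 231 in both. Agreement beyond the wells' own rates was not tested. Without the list of well 2, 4760 regions were partly kept, and with the 4 Ctnnb1flex3/+;Tie2-GFP lists alone 2912.

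The tallest regions of each pattern show the range in single lists, in units of fold enrichment over the local background. The region at chr10:37860876-37861946, 722491 bp upstream of Marcks and outside any protein-coding transcript, had 21.6 and 19.3 in the acute lists, 20.2 and 18.1 in wells 3 and 4, 4.44 and 6.68 in wells 5 and 6, and 13.0 and 13.5 in the stabilized wells. It was thus as tall in wells 3 and 4 as in the acute lists, while neither C57BL/6J list held it. A region at chr13:110696430-110697226, 301782 bp downstream of the Plk2 start, was the tallest of the 23 that only the C57BL/6J wells kept, with 14.9 and 13.1 in the acute lists and 3.70 and 4.52 in wells 1 and 2. Neither stabilized list had a peak there.

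The Slco1a4 region at chr6:141888944-141889727 lay 33136 bp upstream of the start. Its fold enrichment was 18.8 and 18.02 in the acute lists and 4.39 and 6.95 in wells 3 and 4, the only cultured lists with a peak. Named regions were chosen for their acute height, which by itself favours acute values above cultured ones. Over all partly kept regions that each list held, the median was 5.72 and 4.72 in the acute lists and 5.56 and 5.75 in wells 3 and 4. The Cobl region at chr11:12374929-12375380, 3124 bp downstream of the start in an intron, had 21.2 and 20.9 in the acute lists, 8.25 and 6.09 in wells 5 and 6, and 4.16 and 5.50 in the stabilized wells. Its summit lies in the tandem repeat printed above.

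Height in the acute lists differed little between regions kept in few and in many cultures. The lower of both acute fold enrichments had a median of 4.195 (range 1.82 to 21.8) for regions in 1 WT list and 4.06 (1.53 to 22.9) for those just outside, in none. At the other end it was 4.85 (1.55 to 20.5) for regions in 5 lists and 9.91 (1.23 to 43.4) for those in all 6. The step in height thus lay between 5 and 6 lists. Of all acute regions with a lower fold enrichment of up to 3, 44.3% were partly kept, and of those above 15, 2.21%. In the cultured lists that held them, their median fold enrichment was 4.52 to 6.29, against 8.17 to 14.99 for the regions in all 6 lists.

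The beta-catenin stabilized wells were not used to choose the regions. Both of their lists held a peak in 5043 of the 7541 (66.9%, 95% Wilson interval 65.8 to 67.9%), 1 list in 1031 (13.7%), and neither in 1467 (19.5%). With lists of equal length 35.7% of the partly kept regions were in both, and without the list of WT well 2 49.8%. The intervals cover counting error only and take the regions as independent. The share in both lists was 4.66% for regions kept in 1 WT list, 19.3% for 2, 43.4% for 3, 80.4% for 4 and 96.2% for 5. Regions in no WT list had 0.54% and those in all 6 had 99.9%. Among regions with a lower acute fold enrichment between 4 and 5 the share again went from 2.99% for 1 WT list to 97.3% for 5, and with lists of equal length from 3.799% to 79.0%. Regions that more WT wells kept were thus more often kept in the stabilized wells at like acute height, and 2 stabilized wells against 6 WT wells of other preparations do not allow an effect of the stabilized allele to be told apart.

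Which wells kept a region also went with its state in the stabilized wells. Of the 762 regions in wells 3 and 4 alone, 16.4% were in both stabilized lists and 58.0% in neither. Of the 84 in wells 5 and 6 alone, 50.0% were in both and 20.2% in neither. Of the 1612 in wells 3 to 6 without the C57BL/6J wells, 84.1% were in both. The stabilized ATAC-seq wells were isolated by method B and carry the same Ctnnb1flex3 and Tie2-GFP alleles as WT wells 3 to 6, so shared isolation and background cannot be told apart here.

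Most partly kept regions were distal. Of the 7541, 1153 (15.3%) lay within 1 kb of a protein-coding start, 274 (3.63%) elsewhere over an exon, 2966 (39.3%) in an intron, and 3148 (41.7%) outside protein-coding transcripts. The promoter share was 4.66% (95% Wilson interval 3.36 to 6.45%) for regions in 1 WT list and 21.6% (20.2 to 23.1%) for those in 5, against 3.77% (3.20 to 4.43%) in none and 60.2% (59.4 to 60.9%) in all 6. With lists of equal length it was 20.2% for 1 list, 39.6% for 5, 9.05% for none and 66.6% for all 6, so the values depended on list length while the order did not. The median distance to a start was 24437 bp for 1 list, 14613 bp for 5 and 244 bp for all 6. Looked at from the genome, 10.0% of the 11504 acute regions at promoters were partly kept and 88.8% were in all 6 lists, while of the 16718 beyond 1 kb 38.2% were partly kept, 40.4% were in all 6 and 21.4% in none. Beyond 1 kb the partly kept share was alike at all distances, between 35.5% and 39.6% in every bin from 1 to 5 kb up to over 100 kb.

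**Figure D2:**
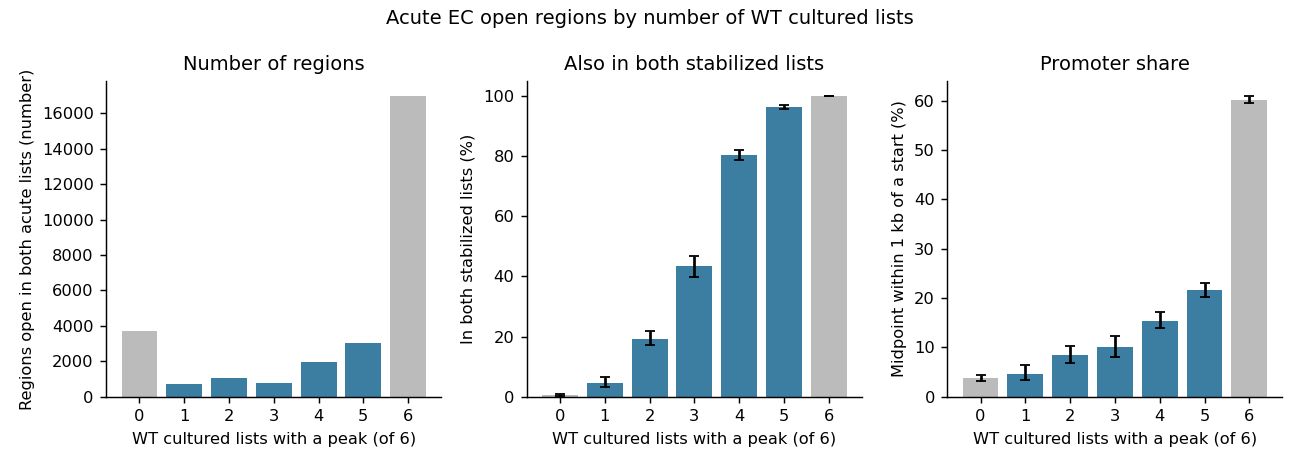
Acute regions by the number of WT cultured lists (0 to 6) that held a peak, as the number of regions (left), the share also in both stabilized lists (middle) and the share within 1 kb of a start (right). Partly kept regions are blue, the others grey, and error bars on shares are 95% Wilson intervals. The promoter share steps from 21.6% at 5 lists to 60.2% at 6, while the share in both stabilized lists climbs from 4.66% at 1 list to 96.2% at 5.

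Short words known from transcription factor sites were counted on both strands in windows that reached 100 bases to each side of the taller acute summit. They were TGANTCA for AP-1, GGAATG for TEAD, CTTTGAT or CTTTGAA for TCF/LEF, ACAATGG or ACAAAGG for SOX, CCGGAAGT or AGGAAGT for ETS, GGGCGG or CCACCC for SP/KLF, TGTTTAC for FOX, CAGCAGG for ZIC and CCAAT for NFY, and a longer word for CTCF. Words of different factors may overlap. Of 7464 partly kept regions on assembled chromosomes, 13.2% held a TCF/LEF word, 14.6% a SOX word and 5.61% an AP-1 word. Over the 28072 regions open in both acute lists these shares were 9.29%, 10.1% and 6.98%. At all positions together, TCF/LEF and SOX words were thus commoner and AP-1 words somewhat rarer among the partly kept regions. Over all 124476 merged intervals, which include those seen in cultures alone, they were 7.45%, 10.2% and 24.7%, and most of the AP-1 difference from that background was shared by all acute regions. The other shares, set beside those of all acute regions, were 11.0% and 9.82% for TEAD, 15.3% and 14.4% for ETS, 37.5% and 51.4% for SP/KLF, 5.47% and 3.97% for FOX, 14.4% and 11.5% for ZIC, 20.1% and 25.8% for NFY, and 3.01% and 2.17% for CTCF. Beside all merged intervals, with 17.0% for TEAD and 26.97% for SP/KLF, the direction was the opposite for both. Promoters made up 15.3% of partly kept but 40.8% of all acute regions. Among distal regions, partly kept against all acute, TCF/LEF had 14.8% against 13.9%, SOX 16.0% against 14.3% and AP-1 6.21% against 9.97%. TEAD had 11.8% against 12.1% and SP/KLF 32.1% against 34.2%. ETS had 15.9% against 15.6%, FOX 5.97% against 5.54%, ZIC 14.9% against 13.9%, NFY 20.5% against 21.6% and CTCF 3.37% against 2.78%. All differences but that of AP-1 were smaller there.

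Within the distal regions the shares moved with the number of wells. A TCF/LEF word was in 18.8% of distal regions kept in 1 WT list, 17.3% for 2, 16.1% for 3, 15.4% for 4 and 11.8% for 5, between 23.7% for none and 7.84% for all 6. AP-1, the factor family formed by FOS and JUN proteins, went the other way, from 4.44% for 1 list to 7.50% for 5, with 16.9% for all 6. CTCF, the factor that anchors chromatin loops, had its word in 0.44% of distal regions in 1 list (3 of 676) and in 5.07% of those in 5. Outside the partly kept regions it was 0.40% for none and 3.48% for all 6, so it was highest at 5 lists. Motif shares were not counted with lists of equal length. The median GC content moved too, from 49.3% for 1 list to 51.7% for 5, and its part in these shares was not tested. Distal regions kept by wells 3 and 4 alone (693) held a TCF/LEF word in 18.5%, a SOX word in 18.9% and an AP-1 word in 3.17%. Of all distal partly kept regions, the 4105 in both stabilized lists held a TCF/LEF word in 13.4%, against 17.0% for the 1337 in neither. Regions in more WT lists were more often in both stabilized lists and held this word less often. The number of WT lists was not held fixed here, so its part cannot be told apart.

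**Figure D3:**
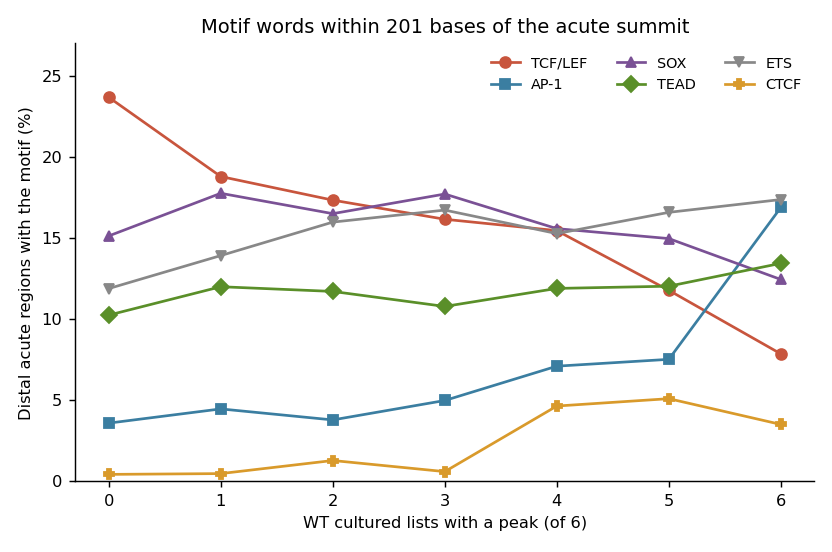
Share of distal acute regions (y axis, percent) with a motif word within 100 bases of the acute summit, by the number of WT cultured lists (x axis, 0 to 6). TCF/LEF goes from 23.7% at 0 lists to 7.84% at 6, and AP-1 from 3.56% to 16.9%.

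Each region was assigned to the nearest protein-coding start within 100 kb, which placed 6616 of the 7541 at 4087 genes. Assignment by distance does not show that a region acts on that gene. Of all 25619 acute regions so placed, 25.8% were partly kept. Among gene groups the share was 40.4% (46 of 114 acute regions) for the Wnt and beta-catenin pathway, 40.0% (102 of 255) for EC transcription factors, 36.1% (52 of 144) for BBB transporters, 35.2% (68 of 193) for general EC genes, 33.7% (29 of 86) for junction genes, and 25.0% (20 of 80) for AP-1, YAP and TEAD genes. All but the last lay above the 25.8%, with no test made. The same groups were also above the 11.5% of placed acute regions that no WT list held. That share was 24.6% for the Wnt group, 13.3% for EC transcription factors, 26.4% for BBB transporters, 19.2% for general EC genes and 16.3% for junction genes. Of all acute regions, 10.0% at promoters and 38.2% beyond 1 kb were partly kept, and the groups were not matched for position.

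RNA-seq of acutely isolated and cultured ECs was taken as a second readout at these genes. Of the 4087 genes, 3356 had enough counts to be tested between 6 WT cultured wells and 2 acute libraries. By edgeR's quasi-likelihood test with an adjusted p under 0.05, a change over 2-fold and at least 5 TPM in every sample of the higher group, 631 of them (18.8%) fell in culture, against 10.2% of all 13798 genes tested, and 342 (10.2%) rose, against 13.5%. Their median log2 fold change was -0.47, beside 0.10 for all genes. The share that fell was 13.3% of 2178 genes with 1 partly kept region, 22.0% of 685 with 2, and 38.7% (191) of 493 with 3 or more. Genes with an acute region but no partly kept one had 8.92% lower and 16.8% higher. Of 593 tested genes whose acute regions were all partly kept, 40 (6.75%) fell and 55 (9.27%) rose, both below the shares of all genes. The excess of lower calls was thus among genes that also had other acute regions. Those 593 were the tested part of 1021 such genes, and their median log2 fold change was -0.19. The part of the TPM minimum in their low shares was not tested. With the list of well 2 left out, 20.9% of the genes with a partly kept region fell, and with equal lists 17.7%.

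The fall was not particular to partly kept regions. By the number of WT lists of a region, 27.5% of genes fell for none, 25.0% for 1, 29.6% for 2, 26.8% for 3, 21.7% for 4, 20.3% for 5 and 12.1% for all 6, where a gene can count in several. Genes of the regions in wells 3 and 4 alone had 157 of 493 (31.8%) lower, those of the regions in every well but well 2 20.8%. In the acute libraries the summed level of 6 erythroid markers was 5448 to 41100 TPM, against 0 to 1.39 TPM in WT cultures, and that of 6 astrocyte markers 87.7 to 467 TPM against 3.36 to 45.8 TPM. Markers of the oligodendrocyte lineage summed to 28.4 to 30.7 TPM in acute against 0.329 to 1.46 TPM in WT cultures, and those of microglia to 7.98 to 18.9 TPM against 40.7 to 74.8 TPM. Mural cell markers summed to 374 to 460 TPM in acute and 158 to 916 TPM, median 704, in WT cultures. Endothelial markers summed to 2373 to 2671 TPM in acute and 1025 to 2988 TPM in WT cultures. The sums for neurons (3.20 to 5.76 TPM against 0.220 to 13.6 TPM) and fibroblasts (15.4 to 15.7 TPM against 7.11 to 41.5 TPM) overlapped. The part of these markers in the result was not tested. The acute libraries were also read single-end and the cultured ones paired-end, which cannot be told apart from culture in these comparisons. The authors cut the reads of a long paired-end sample down to the other layouts and reported highly correlated expression estimates.

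**Figure D4:**
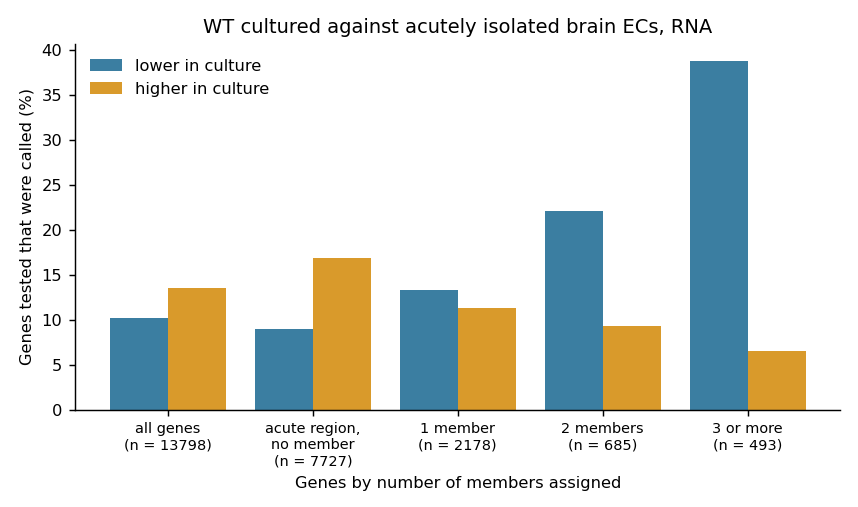
Share of genes tested (y axis, percent) that were called lower or higher in WT cultured than in acute ECs, for all genes, genes with an acute region but no partly kept one, and genes with 1, 2 and 3 or more partly kept regions (members). The share called lower is 13.3% with 1 region and 38.7% with 3 or more, against 10.2% of all genes.

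BBB transporter genes with a partly kept region were lower in culture at 19 of 23 (82.6%), and none was higher, with a median log2 fold change of -3.12 beside 0.10 for all genes. Over the whole list 28 of 33 (84.8%) were lower, about the same share, against 10.2% of all genes tested. Slco1a4 stood at 680 and 807 TPM in the acute libraries and at 6.31 to 91.0 TPM, median 21.6, in the WT wells, and no cultured well reached the acute range. The fold change was -5.61 on the log2 scale (SE 0.87, edgeR adjusted p = 0.0012). Among WT wells its RNA did not follow the peak of the region printed above. Wells 3 and 4, which kept that peak, had 23.7 and 19.5 TPM. Of the wells without it, wells 1 and 2 had 59.7 and 91.0 TPM, and wells 5 and 6 had 6.31 and 8.57 TPM. Slc2a1, the glucose transporter GLUT1, had 6 partly kept regions, was at 1588 and 1816 TPM in acute and at 210.2 to 675.8 TPM in WT wells, and fell by 2.07 on the log2 scale (SE 0.36, edgeR adjusted p = 0.0021). Slco1c1, a thyroid hormone transporter, had 2 such regions, with 1475 and 1993 TPM in acute against a WT median of 0.909 TPM (range 0.559 to 9.99). The organic anion transporter gene Slc22a8, with 3, had 179 and 183 TPM in acute against 0.0204 to 0.311 TPM in WT wells. For all these genes the acute and WT ranges were apart. Abcc4, an efflux pump whose region at chr14:118736933-118737814 only well 4 kept (fold enrichment 3.27 against 14.5 and 13.7), had 53.2 and 40.5 TPM in acute and 7.06 to 59.9 TPM in WT wells, so its groups overlapped, though it fell by 2.36 on the log2 scale (SE 0.37, edgeR adjusted p = 0.0013).

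Junction genes with a partly kept region were lower at 7 of 12 tested (58.3%), with none higher and a median log2 fold change of -1.76, beside 8 of 15 (53.3%) lower and 1 higher over the whole list. Ocln encodes occludin of the tight junction, and its region at chr13:100577456-100578265, 25142 bp upstream, had a peak in every list but that of well 2. Fold enrichment there was 13.8 and 12.8 in acute lists, 4.44, 6.77, 6.49, 5.28 and 7.73 in wells 1, 3, 4, 5 and 6, and 5.33 and 8.47 in the stabilized wells. Its RNA was 110 and 218 TPM in acute and 16.9 to 94.1 TPM, median 73.3, in WT wells, which did not overlap. It fell by 2.04 on the log2 scale (SE 0.48, edgeR adjusted p = 0.0088), a call lost without acute library 1 (adjusted p = 0.069). Tjp1, the gene of the scaffold ZO-1, had 7 partly kept regions and 333 and 442 TPM in acute against 24.2 to 67.1 TPM in WT wells.

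In the Wnt and beta-catenin group, 11 of 15 tested genes with a partly kept region fell (73.3%) and none rose, with a median log2 fold change of -2.78, beside 14 of 25 (56.0%) lower and 1 higher over the whole list. Axin2, a feedback inhibitor that Wnt signalling itself induces, had 4 such regions. Its RNA was 47.0 and 51.8 TPM in acute and 0.0998 to 0.269 TPM in WT wells, far apart, and 0.974 to 1.86 TPM in the stabilized wells. Lef1, a TCF/LEF factor gene with 7 partly kept regions, had 47.4 and 205 TPM in acute and 1.61 to 18.8 TPM in WT wells (log2 fold change -4.63, SE 0.61, edgeR adjusted p = 0.00065). Tnfrsf19, a receptor gene of the TNF family, kept the intron region chr14:60984744-60985475 in wells 3 and 4 and fell by 4.58 on the log2 scale (SE 0.23, edgeR adjusted p = 1.5e-05). Ctnnb1 had 881 and 952 TPM in acute and 230 to 747 TPM, median 379, in WT wells. Its log2 fold change was -1.20 (SE 0.42, edgeR adjusted p = 0.043), and its region at chr9:120854169-120854915, 74674 bp upstream, was in well 4 only, at a fold enrichment of 3.48 against 12.5 and 11.8 in acute. A call so near the threshold was lost in 10 of 15 alternative settings.

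EC transcription factor genes with a partly kept region fell at 17 of 32 (53.1%), with none higher, beside 20 of 39 (51.3%) over the whole list. Klf6, a zinc finger factor gene, had 56.98 and 83.9 TPM in acute and 216 to 413 TPM in WT wells, but its fold change did not pass (edgeR adjusted p = 0.09). Fli1, of the ETS family, whose region at chr9:32561094-32561977 was at 14.5 and 14.3 in acute and at 3.06 and 2.75 in wells 3 and 4, did not pass either (log2 fold change -1.08, edgeR adjusted p = 0.10). Of general EC genes with a partly kept region 8 of 22 (36.4%) fell and 1 rose, beside 9 of 30 (30.0%) and 2 over the whole list. The one that rose was Emcn, with 100.9 and 176 TPM in acute and 939 to 2172 TPM in WT wells (log2 fold change 2.83, SE 0.57, edgeR adjusted p = 0.0043). Its region at chr3:137242297-137243577, 98130 bp upstream, had a fold enrichment of 14.6 and 13.8 in acute lists and 8.24, 10.1, 10.8 and 12.6 in wells 3 to 6, and no peak in the C57BL/6J lists. Emcn RNA did not follow this peak among WT wells. It was 1928 and 2172 TPM in the C57BL/6J wells and 939 to 1175 TPM in wells 3 to 6. Ptprb, the gene of the endothelial phosphatase VE-PTP, and Flt1, a VEGF receptor gene with 6 partly kept regions, fell by 2.96 and 4.54 on the log2 scale.

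Among AP-1, YAP and TEAD genes with a partly kept region, 3 of 13 (23.1%) rose and 1 fell, beside 7 of 25 (28.0%) and 1 over the whole list. Those that rose were Ccn1 and Ccn2, matrix protein genes that YAP induces, and Maff, and the one that fell was Jun. Tead1 had 14.6 and 7.60 TPM in acute and 6.72 to 41.2 TPM in WT wells, an overlap, with no call (edgeR adjusted p = 0.99). Its intron region at chr7:112763446-112764125 had a fold enrichment of 15.01 and 16.02 in acute lists and 3.79 to 6.07 in wells 3 to 5.

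**Figure D5:**
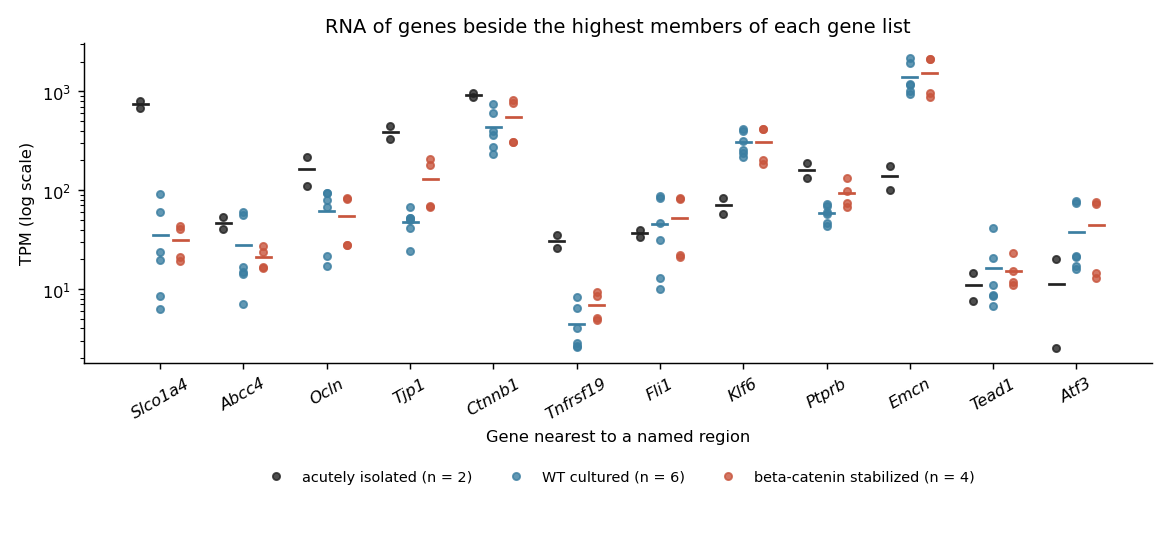
RNA level (TPM, log axis) per library of genes with partly kept regions, in 2 acute, 6 WT cultured and 4 beta-catenin stabilized libraries, each point 1 library and each line a group mean. Slco1a4 lies at 680 and 807 TPM in acute and at 6.31 to 91.0 TPM in WT wells, and Emcn at 100.9 and 176 TPM against 939 to 2172 TPM.

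The genes with the largest calls in culture were chosen by a fixed rule of size. AA467197 was listed at 0 TPM in both acute libraries and at 95.6 to 449 TPM in WT wells, at least 5262-fold higher in CPM against a floor of 3 counts over the acute group. Gdf15, a stress-induced cytokine of the TGF-beta superfamily, was listed at 0 TPM in both and at 17.7 to 43.2 TPM in WT wells, at least 1311-fold. 4930486L24Rik was at least 1178-fold higher by the same floor. The groups of all of these were apart. Tnc, the gene of the matrix glycoprotein tenascin C, had 0.00703 and 0.136 TPM in acute and 49.0 to 198 TPM in WT wells, and Eda2r, a receptor gene of the TNF family, 0.00323 and 0.114 TPM against 23.3 to 44.2 TPM. Of those that fell, Srarp had 40.9 and 39.2 TPM in acute and 0 to 0.0479 TPM in WT wells. The predicted genes Gm10718 (1069 and 21.8 TPM), Gm10719 (204 and 33.7 TPM) and Gm10801 (370 and 7.31 TPM) differed widely between the acute libraries and were at or below 0.259 TPM in WT wells, and their counts are uncertain where near-identical copies share reads.

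Between WT wells of Ctnnb1flex3/+;Tie2-GFP and of C57BL/6J, 3225 genes with a partly kept region were tested. By edgeR's quasi-likelihood test with the same limits, 164 (5.09%) were higher and 133 (4.12%) lower in Ctnnb1flex3/+;Tie2-GFP, against 4.93% and 2.61% of all genes. Scaling by library size gave 127 higher and 172 lower, so the direction of the balance depended on scaling. Without either C57BL/6J well no gene passed after adjustment (607 of 3273 without well 1 and 678 of 3268 without well 2 at an unadjusted p under 0.05, which is 18.5% and 20.7%, near the 17.2% and 18.8% of all genes). Fos, of the AP-1 family, had 218 and 260 TPM in C57BL/6J wells and 12.7 to 14.9 TPM in the others (log2 fold change -4.51, SE 0.45, edgeR adjusted p = 0.0075). In the stabilized wells, all of the Ctnnb1flex3 allele, Fos was at 218 and 213 TPM in those isolated by method A and 11.2 and 8.95 TPM in those by method B, so wells with this allele were split by isolation, which also separates preparations. Nostrin, which encodes a protein of nitric oxide synthase trafficking, had 21.5 and 26.6 TPM against 1.71 to 2.88 TPM, and 23.0, 24.2, 3.001 and 2.94 TPM in the stabilized wells, with the same split. Bmx, a tyrosine kinase gene, was also lower, by 3.68 on the log2 scale. Of the higher genes, Itga5, the gene of a fibronectin receptor subunit, had 13.3 and 25.6 TPM against 227 to 456 TPM, with 62.2, 92.7, 186 and 154 TPM in the stabilized wells. Ecm1 had 3.01 and 6.39 TPM against 28.97 to 379 TPM, and Txn2, of mitochondrial thioredoxin, 3.63 and 8.99 TPM against 50.9 to 297 TPM, both highest in wells 3 and 4. The RNA libraries of wells 3 and 4 were made at another facility and read with longer reads than all other cultured libraries, which cannot be told apart from their preparation.

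Genes with partly kept regions were also compared between acute GFP-positive ECs and GFP-negative brain cells. Of 3498 tested by edgeR's quasi-likelihood test, 699 (20.0%) were higher in ECs against 8.28% of all genes and 254 (7.26%) lower against 7.55%. With 3 or more partly kept regions, 220 of 502 (43.8%) were higher in ECs. Grouped by the WT lists of a region, 28.3% of genes were higher in ECs for none, 28.8% for 1 and 31.7% for 2. The share was 26.8% for 3, 24.1% for 4, 21.3% for 5 and 11.0% for all 6, where a gene can count in several. The enrichment was thus not particular to partly kept regions. The 2 acute EC libraries are those of the culture comparison, so both results share them. Summed over 6 endothelial markers the level was 2373 to 2671 TPM in GFP-positive cells and 97.6 to 110 TPM in GFP-negative cells, so the markers were concentrated in the sorted cells. In bulk RNA, fewer cells of a type and less RNA per cell cannot be told apart.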

How the data were processed

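ATAC-seq peak lists of 2 acute, 6 WT cultured and 2 beta-catenin stabilized libraries and RNA-seq tables of 14 libraries were used. For ATAC-seq, the authors mapped reads to GRCm38 (HISAT2 2.1.0), discarded duplicates (Picard) and made a peak list for every library on its own (MACS2 2.1.2). The deposited lists give fold enrichment over local background (a ratio), −log10 of p and of q, and a score made from the −log10 q, with no read count. The authors quantified RNA with Salmon 0.14.0 on GENCODE M21 transcripts, and the deposited tables hold estimated counts and TPM per transcript. The lists were merged, and the nearest protein-coding start of GENCODE M21 was assigned with Python 3.11.15, pandas 2.3.3 and SciPy 1.17.1. Sequences were read with pysam 0.24.0. Estimated counts were summed per protein-coding gene, rounded, filtered with filterByExpr, scaled by TMM and tested with edgeR 4.0.16 (R 4.3.3, limma 3.58.1) with Benjamini-Hochberg adjustment, and DESeq2 1.42.0 served as an alternative. Depth was 17018961 to 73901239 counts at protein-coding genes per library.

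The regions, gene lists and tests were chosen with earlier results of these data known. Named regions were the tallest of each fixed pattern or gene list, by the lower acute fold enrichment, and a part of them is printed. For the patterns only chromosomes 1 to 19 and X were used, with chromosome 18 left out, so a taller region can exist elsewhere. Named genes were the 5 with the largest called change in each direction in culture and the 3 between WT genotypes, with TPM ranges that did not overlap, and the genes of named regions. The other gene examples from the lists, such as Slc2a1, Slco1c1, Axin2, Lef1 and Flt1, were chosen after their values were seen. On simulated data for culture against acute with 13798 genes, the test recovered 18% of genes changed 4-fold and 92% changed 64-fold. Alternatives were thresholds, merging, list length, libraries left out, scaling, filters and assignment distance. The authors' scores were not used in a result. Libraries for which no file was given were not analysed here.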

Additional observations from a re-analysis of the deposited data

Results flagged for a closer look

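Of 55 groups of 4 or 6 samples looked at for a sample far from the others, 2 were picked out, and chance would pick about 5%. Both were predicted genes in the beta-catenin stabilized cultured RNA: Gm10718 stood at 1.91 TPM in well 2 and at 0 TPM in the other 3 wells, and Gm10801 at 1.08 TPM in well 2 with 0.180 TPM as the next highest. Both values are low beside the acute libraries.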

How the results depend on the processing

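The lists hold no read depth, so an absent peak cannot be told from too few reads, and wells of 1 preparation are not separate animals. Leaving out 1 library moved the number of partly kept regions between 4760 (without WT well 2) and 11383 (without acute library 2), those in both stabilized lists between 2370 and 7455, and the promoter share between 11.7% and 16.3%. With the Ctnnb1flex3/+;Tie2-GFP lists alone, which was added after seeing the data, these were 2912, 864 and 8.17%. With lists of equal length 1909 regions were in both stabilized lists and the promoter share was 26.2%. The promoter share was 27.7% with a −log10 q over 10, 18.02% with a summit inside the acute peak, and 26.3% with starts within 5 kb. With windows of 200 bases on each side the shares were 10.5% for AP-1, 21.4% for TEAD, 21.9% for TCF/LEF, 21.5% for SOX, 22.0% for ETS, 50.6% for SP/KLF, 8.88% for FOX, 20.9% for ZIC, 37.55% for NFY and 3.55% for CTCF. The count of genes lower in culture was 994 with no TPM minimum and 171 with starts within 1 kb, and 524 to 643 with 1 library left out. The count higher was 528 with no TPM minimum, 97 with starts within 1 kb, 215 without the list of WT well 2, and 223 to 348 with 1 library left out. Of genes with 3 or more regions, 3 fell with starts within 1 kb, 97 without the list of WT well 2, 95 with equal lists, and 150 to 190 with 1 library left out. Between WT genotypes the count was 454 with no TPM minimum, 87 with starts within 1 kb, 625 with the 36-cycle libraries only, and 0 to 266 with 1 library left out. Higher in ECs were 438 with an offset for transcript length, 181 with starts within 1 kb, and 450 to 766 with 1 library left out. Scaling by library size moved the median over all genes, on the log2 scale, from 0.10 to 0.30 in culture and from -0.06 to -0.44 in ECs against GFP-negative cells. The cause of these moves was not tested. The calls of the named genes were kept under every alternative for 17 of 21 in culture, 12 of 17 in ECs and 0 of 12 between WT genotypes.

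Deviations from the group mean correlated little between same-numbered libraries. The correlation was 0.07 for acute GFP-positive and GFP-negative cells, and -0.03 and 0.02 for acute ECs and WT wells 1 and 2. With 2 acute libraries the deviations mirror each other, so this cannot show whether the samples were paired. With the replicate number as a block, 765 genes were lower and 386 higher in culture, 206 with 3 or more regions were lower, and 637 were higher in ECs. With the wells of each preparation summed to 1 sample, 430 genes (12.7%, against 5.94% of all genes) were lower and 235 (6.95%, against 8.92%) higher in culture, and 142 (28.8%) with 3 or more regions were lower.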

Other observations

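The genes with the most partly kept regions were mostly predicted genes with near-identical copies. Gm21119 had 24 of 35 acute regions, AC149090.1 22 of 46, 4930467E23Rik 14 of 22 and Gm15319 12 of 19, and their peaks are uncertain where reads map to several copies. Gse1, a gene of a chromatin corepressor complex, had 13 of 19. Its RNA was 8.22 and 6.05 TPM in acute and 0.518 to 2.002 TPM in WT wells (log2 fold change -4.40, SE 0.60, edgeR adjusted p = 0.00072).

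Around 6 marker genes each, the acute lists held 43 regions for endothelial genes, of which 15 were partly kept, and 0 for mural and for erythroid genes. There were 9 for astrocyte genes with 3 partly kept, 7 for fibroblast genes with 3, 6 for oligodendrocyte lineage genes with 2, 5 for neuron genes with 1, and 3 for microglia genes with 0. In acute RNA the mural markers summed to 374 to 460 TPM and the erythroid markers to 5448 to 41100 TPM, so these 12 marker genes had transcripts but no region assigned to them with a peak in both acute lists.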
